A study of Drosophila melanogaster with 16 samples.

Results

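The cytochrome P450 genes of the fly were examined in females that had or had not been starved, in antennae and in brain. Members were all probes, other than controls, whose gene name on the array is Cyp, a number, letters and a number. The 193 spots that met this rule belonged to 124 probes and 84 genes. Every one of the 124 probes was matched to a gene of the current fly annotation, Release 6, where Cyp9f3Psi is now named Cyp9f3. The array held 23982 entries counted as genes, where a probe without a match to Release 6 stands under its name on the array. Of all 32162 probes 20712 were matched, so the shares of all genes given below include entries without a match.

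Transcripts were read on Agilent arrays with 1 dye, where labelled copies of an RNA extract are caught by spotted DNA probes and a scanner records how bright every spot becomes. Starved females had gone without food for 28 h and fed females for 0 h, at an age of 5 to 7 days, and the study's methods add that fed flies were kept in the same way with access to sucrose. Each extract came from 50 flies, as 100 antennae or 50 brains, and was hybridized to 1 of 16 arrays, 4 each from starved antennae, fed antennae, starved brains and fed brains. A value is thus the average of a pool of animals. The methods draw both the 100 antennae and the 50 brains from 50 flies, so antennae and brains may share animals. The main comparisons treated them as separate samples. The labels name no strain, and the methods list CantonS together with several transgenic lines without saying which gave the RNA.

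P450s are haem enzymes that add oxygen to a substrate and so change hormones, fatty acids, hydrocarbons, plant compounds and insecticides. Most sit in the endoplasmic reticulum and take electrons from Cpr, the NADPH-dependent P450 reductase, while those of the mitochondrial clan use ferredoxin and its reductase. In antennae, P450s of the support cells are known as candidates for clearing odorants, and in the whole animal they are best known from fat body, gut and Malpighian tubules. The 84 genes fell into 32 of the CYP4 clan, 39 of the CYP3 clan, 4 of the CYP2 clan and 9 of the mitochondrial clan. Levels are log2 spot signals from which the 75th percentile of all spots on that array was subtracted, and a difference between groups is a difference of such log2 levels. Levels of different genes are not compared, because every probe has its own brightness.

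The share of spots well above background was 65.4 to 73.6% per array. All 10 genes used as antennal markers were higher in antennae, with a median difference of 6.71 in fed flies, while all 10 genes of brain peptide neurons were lower there, with a median of -6.31. In brains, 2 of the 10 antennal markers were not well above background on any array. In fed flies the other lists separated the tissues less. Photoreceptor genes had a median difference of -0.68 in fed flies, with sums of 160 to 226 in fed antennae and 266 to 363 in fed brains, and 6 of 8 muscle genes were higher in fed antennae, with a median of 1.34. Genes of digestive enzymes marked the antennal arrays unevenly. Their summed level was 0.544 to 1.11 on the starved antennal arrays, against 68.3, 160, 2.35 and 1.17 on fed antennal arrays 1 to 4. In brains it was 12.4 to 339 on the starved arrays, against 14.9 to 194 on the fed arrays. Fat body genes moved with starvation in brains, where 7 of 8 tested were higher and their sum was 100 to 181 on the starved arrays, against 30.9 to 53.5 on the fed arrays. In antennae 2 of 7 fat body genes were higher, with sums of 39.7 to 55.4 on the starved arrays against 27.6 to 44.4 on the fed arrays, and 2 of 4 genes of peptide neurons were lower. Because tissues were analysed whole, fewer cells of a type and less RNA per cell cannot be told apart.

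Most P450 genes were measured in both tissues. Taking the brightest probe of each gene, 62 (73.8%) were well above background on all 8 antennal and all 8 brain arrays, against 55.3% of all genes. Cyp313b1 was well above background on all 8 antennal arrays and on no brain array, and Cyp4s3 on all 8 brain arrays and on no antennal array. Cyp318a1, Cyp4d14 and Cyp6v1 passed on all antennal arrays and on some brain arrays, while Cyp301a1, Cyp309a2, Cyp312a1 and Cyp6a15Psi passed on all brain arrays and on some antennal arrays. A further 6 genes, Cyp304a1, Cyp310a1, Cyp313a2, Cyp316a1, Cyp4ad1 and Cyp6a18, were not well above background on any array. The other 7, among them Cyp303a1 and Cyp6a2, passed on some arrays only.

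The comparison of antennae with brain asked which P450s belong to which tissue. In fed flies 72 of the 84 members could be tested, which required a probe well above background on all 4 arrays of 1 or both tissues. Of these 72, 44 were higher in antennae, 23 were lower and 5 did not pass the limma test at an adjusted p of 0.05. That is 93.1% called, where 74.7% of all genes were called, 33.3% of all genes being higher and 41.4% lower in antennae. The median difference was 1.1 over the members tested and -0.13 over all genes tested. By clan, 18 of 26 CYP4, 22 of 35 CYP3, 0 of 2 CYP2 and 4 of 9 mitochondrial genes were higher in antennae, and 5, 11, 2 and 5 were lower. An antennal excess of 4 or more on the log2 scale was seen in 13 members, and no member had a brain excess of that size. The part of photoreceptor, muscle, gut and fat body RNA in these differences was not tested.

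Cyp308a1 stood furthest toward antennae. Its log2 level was 4.75, 4.69, 4.88 and 4.89 in fed antennae, against -2.37, -2.56, -3.31 and -2.56 in fed brains. The difference of 7.50 ± 0.19 (SE, n = 4 each, adjusted p = 1.03e-08) is a 181-fold excess. In starved flies it was 8.25 ± 0.20. Cyp313a4 followed, with 2.14, 2.30, 2.50 and 2.35 in fed antennae, against -4.16, -4.66, -4.21 and -4.38 in fed brains, a difference of 6.67 ± 0.13 (adjusted p = 2.62e-09). Neither gene had overlapping groups.

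Among the other antennal members were several with a described role. Cyp6t3, which takes part in ecdysteroid production in the larval prothoracic gland, was 96.0-fold higher in fed antennae. Cyp4d21, also called sex-specific enzyme 1 and known from male courtship, was 81.6-fold higher. Cyp6a8, an enzyme induced by foreign compounds such as phenobarbital, was 79.4-fold higher. Cyp6g1, whose overexpression gives resistance to DDT and neonicotinoids, was 17.7-fold higher. The remaining members among the 12 with the largest antennal excess were Cyp4ac2 (74.9-fold), Cyp6a21 (33.9-fold), Cyp4d8 (33.4-fold), Cyp4p1 (20.1-fold), Cyp6w1 (20.0-fold) and Cyp4d20 (18-fold), with adjusted p-values of at most 2.84e-06 for the 12. Cyp6a20, which affects aggression and is known from support cells of pheromone sensilla, was 12.6-fold higher in fed antennae. Cyp313b1 was at least 3.95-fold higher in fed antennae and at least 4.07-fold higher in starved antennae than in brains of the same state. Such a bound sets the mean of the brighter group against the dimmest signal that still counted as well above background.

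Members higher in brain were fewer and differed less. Cyp4ac3 had log2 levels of -2.71, -2.90, -3.18 and -3.44 in fed antennae, against 0.18, -0.22, 0.15 and 0.28 in fed brains. The groups stood apart, with a difference of -3.15 ± 0.18 (adjusted p = 7.82e-07), which is 8.91-fold lower in antennae. Its neighbour in the genome, Cyp4ac2, had the opposite tissue order. Cyp28d1, which takes part in nicotine tolerance of larvae, was at 2.63, 2.91, 2.50 and 2.30 in fed antennae and at 5.05, 5.07, 5.13 and 5.29 in fed brains, 5.86-fold lower in antennae. Cyp18a1, the microsomal hydroxylase that inactivates ecdysteroids, was 5.49-fold lower in fed antennae and 8.51-fold lower in starved antennae. Cyp6g2, whose forced expression gives insecticide resistance, was 7.10-fold and 24.4-fold lower in the same comparisons.

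Further members with a brain excess were Cyp301a1 (-2.07), Cyp312a1 (-1.89), Cyp309a2 (-1.84), Cyp6a15Psi (-1.46), Cyp6d2 (-1.41) and Cyp28d2 (-1.04), as log2 differences in fed flies. Some brain members were too dim in antennae for more than a bound and have no place in this order. Cyp4s3 was at least 3.62-fold lower in fed antennae and at least 3.26-fold lower in starved antennae. Cyp303a1, which is needed for the development of sensory bristles, was tested in starved flies only, where it was at least 1.48-fold lower in antennae, and Cyp6t2Psi was tested in fed flies only, where it was at least 1.74-fold lower. Cyp312a1 differed by -1.89 ± 0.53 in fed flies (adjusted p = 0.0108), but only 1 of 4 fed antennal arrays measured it above background. With normexp background correction the calls of Cyp303a1, Cyp312a1, Cyp6a15Psi and Cyp6t2Psi were lost, as was that of Cyp4s3 in starved flies.

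**Figure D1:**
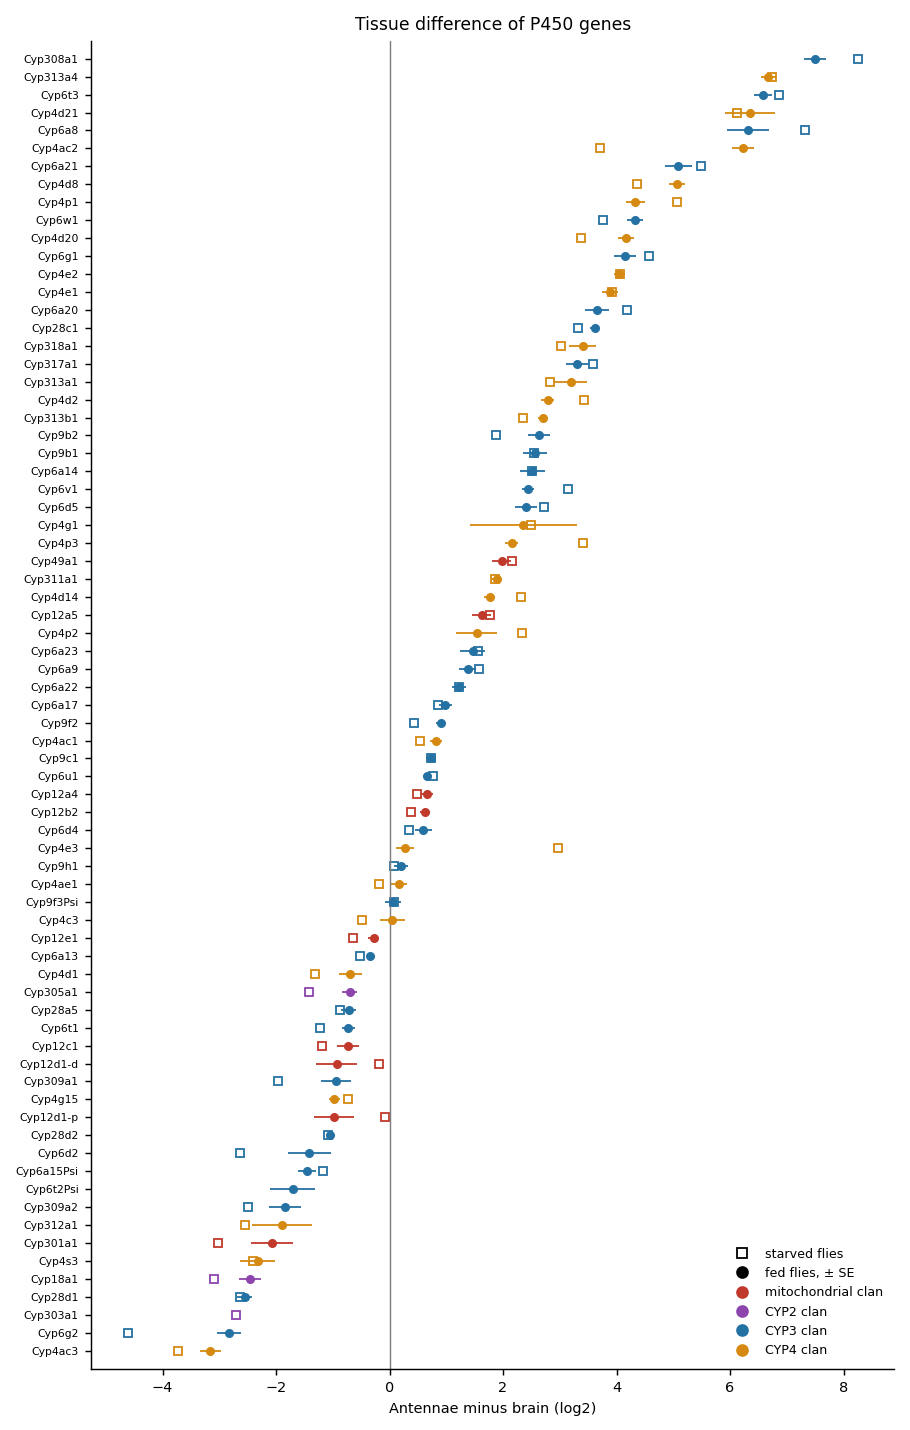
Difference between antennae and brain in log2 units for every P450 gene that could be tested, with starved flies as open squares and fed flies as filled circles with their SE (4 arrays per group), coloured by clan. Positive values are higher in antennae, and Cyp308a1 at 7.50 in fed flies and Cyp4ac3 at -3.15 are the ends of the fed order, while for Cyp313b1, Cyp4s3, Cyp6t2Psi and Cyp303a1 only the bounds given in the text are measured.

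In starved flies 44 members were higher in antennae, 21 were lower and 7 of 72 did not pass, where 76.6% of all genes were called, 36.3% higher and 40.3% lower. Between these starved tissues 7 of 8 tested gut genes were lower in antennae, with a median of -8.23. Of 8 fat body genes 7 were lower and 1 higher, with a median of -3.13. The part of gut and fat body RNA in the differences between starved tissues was not tested. Over both states 43 members were called higher in antennae each time and 20 lower each time. The share of all genes called the same way in both states was not computed. Cyp4e3 differed by 0.27 ± 0.16 between fed antennae and fed brains (adjusted p = 0.152), and by 2.97 ± 0.21 between starved antennae and starved brains. Its other probes were both called higher in fed antennae, at 0.60 (adjusted p = 0.0147) and 0.51 (adjusted p = 0.0277). The 4 members whose representative probe passed in neither state were Cyp4ae1, Cyp4c3, Cyp9f3Psi and Cyp9h1. A second probe of Cyp4c3 was called higher in fed antennae (1.58, adjusted p = 0.00848).

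The comparison of starved with fed flies asked which P450 transcripts follow feeding. In antennae 67 members could be tested. Of these, 16 were higher after starvation, 7 were lower and 44 did not pass the limma test, which is 34.3% called beside 28.3% of all genes. In each direction the shares were 23.9% higher and 10.4% lower among the members, beside 11.1% and 17.2% of all genes. At 2-fold or more, 4 members were higher and 4 lower, beside 0.262% and 3.02% of all genes. The split depends on scaling. With centring of arrays on their medians instead, the median change of all genes moved to 0.19 from -0.02, and 31 members were higher and 6 lower, beside 35.3% and 8.09% of all genes. The median change was 0.05 over the members and -0.02 over all genes tested. By clan, 9 of 24 CYP4, 6 of 32 CYP3, 1 of 2 CYP2 and 0 of 9 mitochondrial genes rose, and 2, 3, 0 and 2 fell. Each tissue comparison above shares its arrays with the starvation comparisons, so the same arrays stand behind both sets of values.

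Cyp6a8 rose most in starved antennae. It stood at 4.90, 5.20, 5.45 and 4.65 in starved antennae, against 3.21, 3.10, 3.08 and 3.01 in fed antennae. All starved arrays lay above all fed arrays, and the change of 1.95 ± 0.16 (SE, n = 4 each, adjusted p = 0.000551) is 3.86-fold. Cyp6d5, which phenobarbital also induces, stood at 5.95, 6.56, 6.73 and 6.01 in starved antennae, against 4.86, 5.30, 4.91 and 5.19 in fed antennae, a 2.37-fold rise (1.25 ± 0.19, adjusted p = 0.00377). Cyp6a21, a neighbour of Cyp6a8 in the genome, rose by 0.96 ± 0.09.

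The 3 genes of the Cyp4p group rose together. Cyp4p3 had levels of -1.73, -1.67, -1.33 and -1.48 in starved antennae, against -2.71, -2.58, -2.66 and -2.60 in fed antennae, a change of 1.09 ± 0.09. Cyp4p1 had 4.52, 4.40, 4.21 and 4.16 in starved antennae, against 3.39, 3.18, 3.22 and 3.28 in fed antennae, a change of 1.05 ± 0.09. Cyp4p2 changed by 0.75 ± 0.13, and none of the 3 had overlapping groups. These genes lie next to each other, so a shared sequence between their probes was not tested and they may not be 3 separate observations. A second probe of Cyp4p1 gave 1.0 and one of Cyp4p3 gave 0.90, both called.

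Smaller rises were seen in Cyp313a1 (0.60), Cyp305a1 (0.57), Cyp4g15 (0.53), Cyp313a4 (0.50), Cyp4d20 (0.45), Cyp6a23 (0.43), Cyp4d2 (0.42), Cyp4d14 (0.41), Cyp6a14 (0.39) and Cyp9c1 (0.21) on the log2 scale. Cyp4g15, the relative of Cyp4g1 that is known from the nervous system, stood at 3.34, 3.27, 3.08 and 3.11 in starved antennae and at 2.71, 2.69, 2.64 and 2.66 in fed antennae. Cyp4d14 passed in 4 of the 8 fits with an array left out and not with normexp correction. Cyp9c1 passed in only 1 of those 8 fits, and its second probe gave -0.16 (adjusted p = 0.227).

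**Figure D2:**
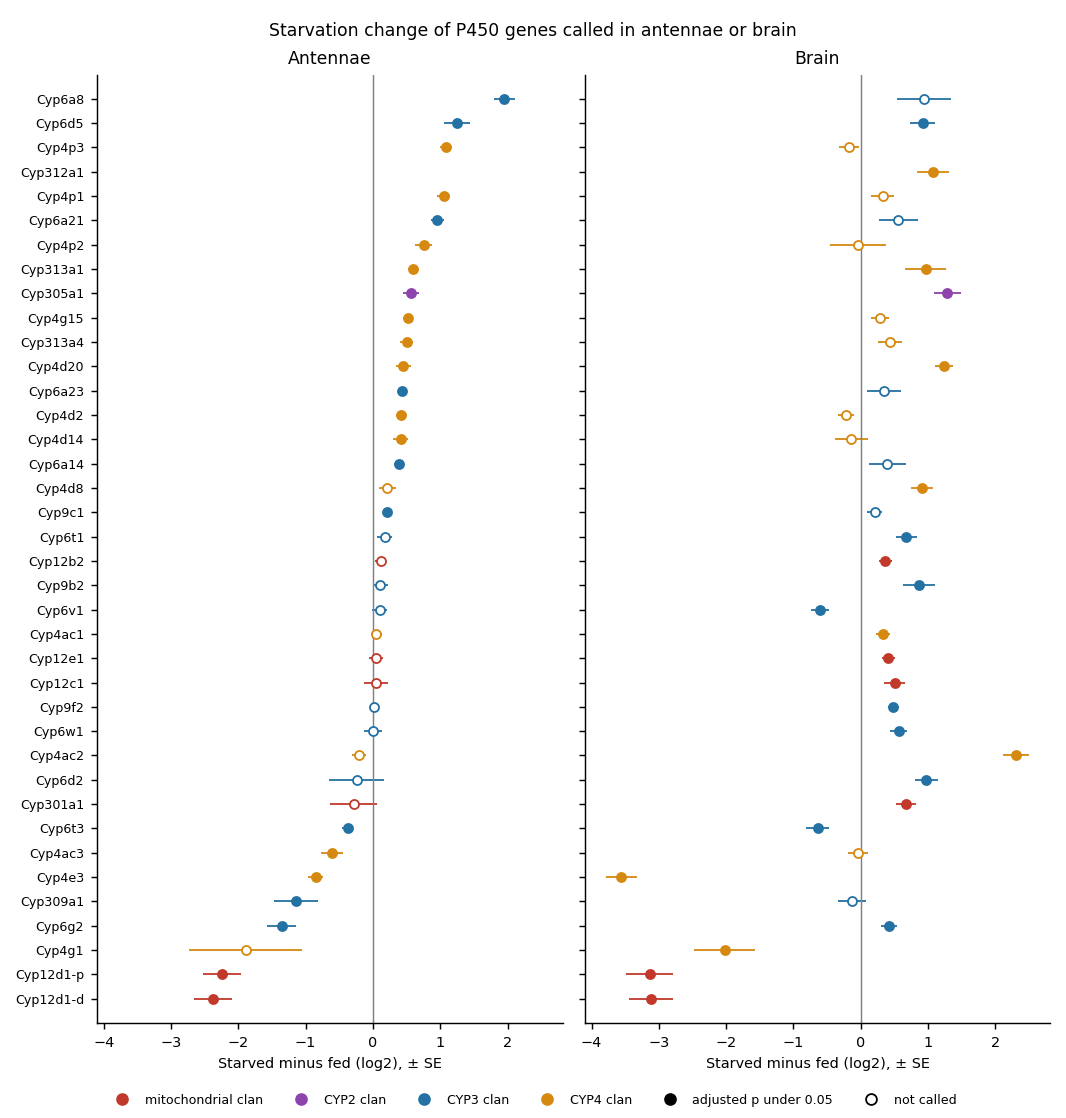
Change in starved minus fed flies (log2, ± SE, 4 arrays per group) in antennae (left) and brain (right) for every P450 gene called in at least 1 of the tissues, coloured by clan. Filled points passed the limma test, and the largest changes are Cyp6a8 at 1.95 and Cyp12d1-d at -2.38 in antennae and Cyp4ac2 at 2.31 and Cyp4e3 at -3.56 in brain.

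The largest falls in antennae were those of Cyp12d1-d and Cyp12d1-p, a pair of nearly identical mitochondrial genes that foreign compounds induce. Cyp12d1-d had levels of -3.10, -2.75, -2.47 and -2.56 in starved antennae, against 0.36, -0.67, -0.95 and -0.12 in fed antennae. Cyp12d1-p had -4.40, -4.24, -3.58 and -3.92 in starved antennae, against -1.03, -2.11, -2.28 and -1.75 in fed antennae. The groups lay far apart for both, and the changes were -2.38 ± 0.28 (adjusted p = 0.0014) and -2.24 ± 0.28 (adjusted p = 0.0018). The probes cannot be taken to tell the copies apart, so these values may be 1 change read by both. A second probe of Cyp12d1-d was not well above background on any array of either tissue, starved or fed.

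Cyp6g2 fell by 1.36 ± 0.22 on the log2 scale, with -5.06, -5.37, -5.59 and -4.96 in starved antennae against -3.85, -4.17, -4.22 and -3.30 in fed antennae. The groups stood apart, but with normexp background correction the change was -0.38 and not called (adjusted p = 0.07). Cyp4e3, whose knockdown in Malpighian tubules lowers the tolerance of flies to permethrin, fell by 0.85 ± 0.12, and its other probes gave -1.18 and -1.25. Cyp6t3 fell by 0.37 ± 0.08, which was not called after median centring. Cyp309a1 fell by 1.15 ± 0.32 (adjusted p = 0.0312) and Cyp4ac3 by 0.61 ± 0.16 (adjusted p = 0.0256), each called in 4 of 8 fits that left out an array.

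Gut genes were lower in starved antennae for 3 of 7 tested, with a median change of -4.80, and fed arrays 1 and 2 held most of their signal. Without these 2 arrays, 12 members (17.9%) were higher and 6 (8.96%) lower in antennae, beside 5.22% and 10.2% of all genes. In that fit Cyp12d1-d changed by -2.19, Cyp12d1-p by -2.02, Cyp6g2 by -1.48 and Cyp4e3 by -0.71, all still called, as were Cyp6a8, Cyp6d5 and the 3 Cyp4p genes. Cyp309a1 (-0.69, adjusted p = 0.187), Cyp4ac3 (-0.35, adjusted p = 0.125), Cyp313a4, Cyp4d20, Cyp4d14 and Cyp9c1 were no longer called. The part of fat body and peptide neuron RNA in the antennal changes was not tested. Cyp4g1 is described here because of its values, which were seen first. This enzyme, which makes cuticular hydrocarbons in oenocytes, had -2.33, -2.20, -2.87 and -2.23 in starved antennae, against -1.79, 2.39, -1.0 and -1.66 in fed antennae. Fed array 2 stood far above the others, and the change of -1.89 ± 0.84 did not pass (adjusted p = 0.121). Without that array it was -0.92 ± 0.23 (adjusted p = 0.0314).

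In brain 72 members could be tested, and 18 were higher after starvation, 6 were lower and 48 did not pass. That is 33.3% called, close to the 32.5% of all genes, but in each direction 25.0% of members were higher and 8.33% lower, beside 11.6% and 20.9% of all genes. At 2-fold or more, 4 members were higher and 4 lower, beside 1.87% and 6.72% of all genes. With centring on array medians 30.6% of members were higher and 6.94% lower, beside 16.2% and 11.5% of all genes, whose median change moved to 0.14, so the direction of the background depends on scaling. The median change was 0.24 over the members and -0.07 over all genes tested. By clan, 6 of 25 CYP4, 7 of 35 CYP3, 1 of 3 CYP2 and 4 of 9 mitochondrial genes rose, and 2, 2, 0 and 2 fell. All of these rises stand beside the higher fat body markers of the starved brain arrays. Malpighian tubule sums were 5.19 to 5.39 on starved and 3.29 to 3.88 on fed brain arrays, with 1 of 3 tested genes higher and 0 lower. Of 8 glial genes 3 were higher and 0 lower, and of 8 muscle genes 2 were higher and 1 lower. The part of RNA from fat body, tubule, glia or muscle in the P450 rises was not tested.

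Cyp4ac2 rose most in starved brains. Its levels were -1.56, -1.81, -1.73 and -1.91 in starved brains, against -4.28, -3.54, -4.47 and -3.98 in fed brains. Starved and fed arrays did not overlap, and the change of 2.31 ± 0.19 (adjusted p = 0.000579) is 4.96-fold. A second probe gave 1.94. Its neighbours gave smaller values in brain, Cyp4ac1 rising by 0.33 ± 0.11 (adjusted p = 0.0469) and Cyp4ac3 giving -0.04 (adjusted p = 0.844).

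Cyp305a1 stood at 1.20, 1.07, 1.27 and 0.44 in starved brains, against -0.25, -0.16, -0.17 and -0.61 in fed brains, a 2.44-fold rise (1.29 ± 0.19, adjusted p = 0.0029). Cyp4d20 stood at 0.42, 0.42, 0.40 and 0.03 in starved brains, against -1.02, -0.61, -1.10 and -0.95 in fed brains, a 2.36-fold rise. Cyp6d5 stood at 3.59, 3.37, 3.68 and 3.70 in starved brains, against 2.63, 2.46, 2.36 and 3.21 in fed brains, a 1.89-fold rise. In none of these 3 genes did the starved and fed arrays overlap. Rises of 0.56 to 1.07 on the log2 scale were found in Cyp312a1, Cyp6d2, Cyp313a1, Cyp4d8, Cyp9b2, Cyp6t1, Cyp301a1 and Cyp6w1. The remaining called rises were Cyp12c1 (0.51), Cyp9f2 (0.48), Cyp6g2 (0.42), Cyp12e1 (0.41), Cyp12b2 (0.37) and Cyp4ac1. Cyp9b2, Cyp313a1, Cyp12c1, Cyp6g2, Cyp12b2 and Cyp4ac1 lost the call in at least 4 of 8 fits that left out an array.

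Cyp4e3 fell most. It was at -1.48, -1.73, -1.85 and -2.51 in starved brains, against 1.33, 1.88, 1.51 and 1.95 in fed brains. The starved and fed arrays were separated by more than the whole spread of either, the change of -3.56 ± 0.23 (adjusted p = 0.000428) is 11.8-fold, and the other probes gave -4.06 and -3.90. Cyp12d1-p had -3.81, -3.36, -3.95 and -4.71 in starved brains, against -0.57, -1.26, -1.34 and -0.11 in fed brains, a change of -3.14 ± 0.35. Its copy Cyp12d1-d changed by -3.12 ± 0.32.

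Cyp4g1 fell by 2.02 ± 0.45 on the log2 scale in brain (adjusted p = 0.013), with -5.40, -4.53, -4.86 and -4.78 in starved brains against -3.44, -1.41, -3.47 and -3.18 in fed brains. As in antennae, fed array 2 was the highest, and without it the change of -1.53 ± 0.20 was still called (adjusted p = 0.00445). Cyp6t3 fell by 0.64 ± 0.18 and Cyp6v1 by 0.61 ± 0.14. Cyp6t3 was not called with median centring or quantile normalization, Cyp6v1 was not called with quantile normalization, and Cyp6v1 was well above background on 2 of 4 starved brain arrays.

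**Figure D3:**
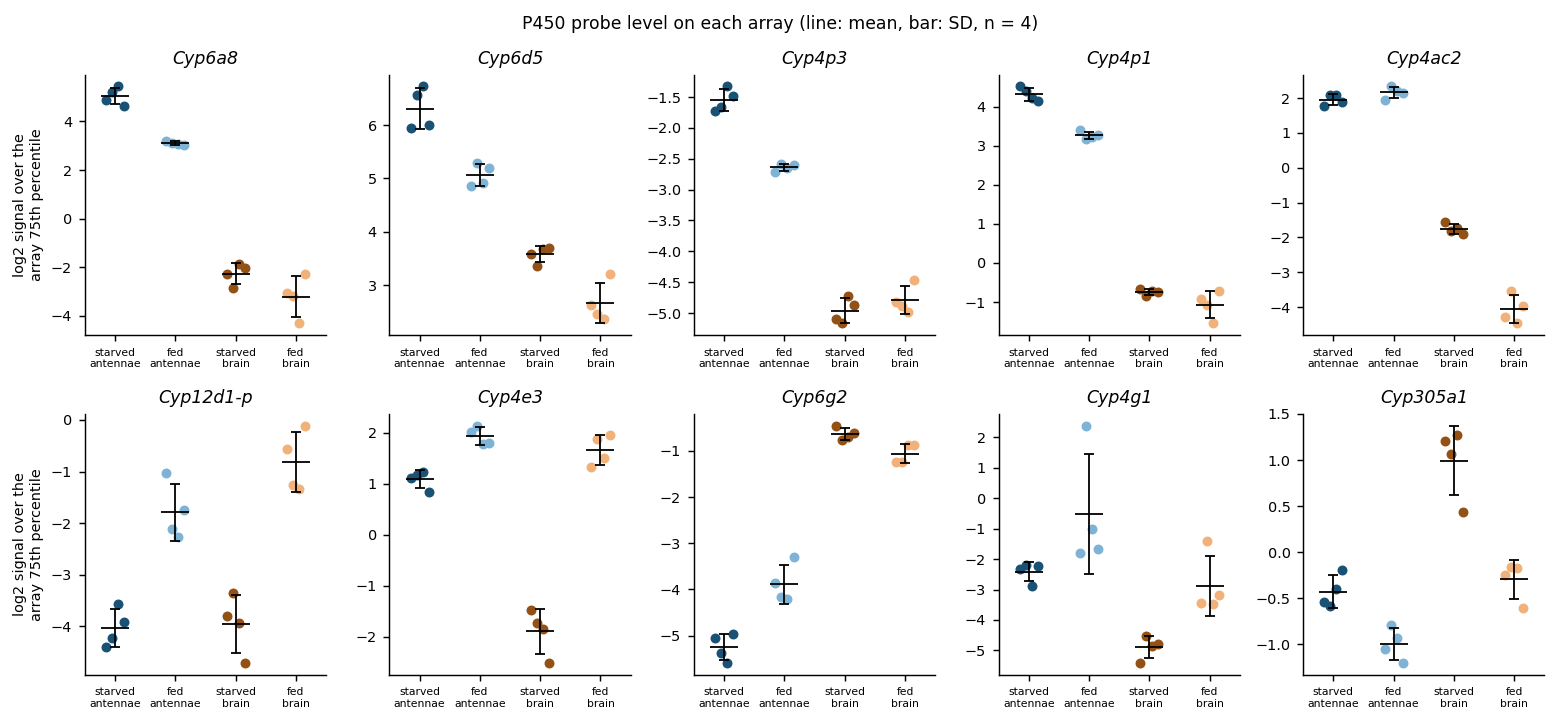
Level of 10 P450 genes on each of the 16 arrays, as log2 signal over the 75th percentile of the array, in starved antennae, fed antennae, starved brain and fed brain (line, mean, and bar, SD, n = 4). Cyp6a8 and both Cyp4p genes separate starved from fed antennae, Cyp4ac2 separates starved from fed brains, Cyp12d1-p and Cyp4e3 are lower after starvation in both tissues, and 1 fed array lies apart for Cyp4g1 in each tissue.

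A total of 66 members were tested in both tissues. Cyp305a1, Cyp313a1, Cyp4d20 and Cyp6d5 were called higher after starvation in both, and Cyp12d1-d, Cyp12d1-p, Cyp4e3 and Cyp6t3 lower in both. Cyp6g2 was called lower in antennae and higher in brain, and 29 passed in neither. The matching shares of all genes were not computed, so these counts give no result about P450 genes as a group. The Cyp12d1 pair may be 1 change, and a second probe of Cyp4d20 gave 0.30 in antennae without passing (adjusted p = 0.0655). The brain rise of Cyp6g2 passed in 3 of 8 fits that left out an array, not in the methods' t-test after adjustment nor in 1 fit over all 16 arrays, and its second probe gave 0.23 (adjusted p = 0.242). Whether the starvation change differed between the tissues was tested as an interaction over all 16 arrays. Of 73 members tested, 7 differed (9.59%, beside 3.22% of all genes), 3 with a higher and 4 with a lower change in antennae, beside 1.43% and 1.79% of all genes.

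Cyp4e3 had the largest difference of the 7. It fell by 0.85 in antennae and by 3.56 in brain, an antennal change higher by 2.70 ± 0.28 (adjusted p = 0.000331). Cyp4ac2 changed by -0.20 ± 0.11 in antennae (adjusted p = 0.176), where its second probe gave -0.38 and was called (adjusted p = 0.0122), and by 2.31 in brain, so that the antennal change was lower by 2.51 ± 0.23 (difference -2.51, adjusted p = 0.000203). In fed flies Cyp4ac2 was 74.9-fold higher in antennae than in brain, and in starved flies 13.1-fold higher. Cyp6g2 changed by -1.36 in antennae and 0.42 in brain (difference -1.78 ± 0.27, adjusted p = 0.00326). Cyp4p3 changed by 1.09 in antennae and -0.17 in brain (difference 1.26 ± 0.18, adjusted p = 0.00229). A second probe of Cyp4p3 gave a difference of 0.99 that did not pass (adjusted p = 0.113), and Cyp4p1 gave 0.73 (adjusted p = 0.0663).

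The other 3 differences called were Cyp9f2 (-0.47, adjusted p = 0.00964), Cyp4d2 (0.65, adjusted p = 0.0274) and Cyp4d20 (-0.79, adjusted p = 0.0318). All of them were lost without fed antennal arrays 1 and 2, where 2 members were called higher and 2 lower, beside 0.575% and 0.769% of all genes. With 1 array left out, Cyp4d20 passed in 5 of 16 fits and Cyp4d2 in 9 of 16, and a second probe of Cyp4d20 gave -0.87 (adjusted p = 0.0741). The 4 genes Cyp4e3, Cyp4ac2, Cyp6g2 and Cyp4p3 were called in each of 16 fits that left out an array. For Cyp6a8, whose rise passed in antennae and not in brain (0.94 ± 0.41, adjusted p = 0.109), the difference itself did not pass (1.01 ± 0.47, adjusted p = 0.309), nor did it for Cyp12d1-d (0.74, adjusted p = 0.462).

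**Figure D4:**
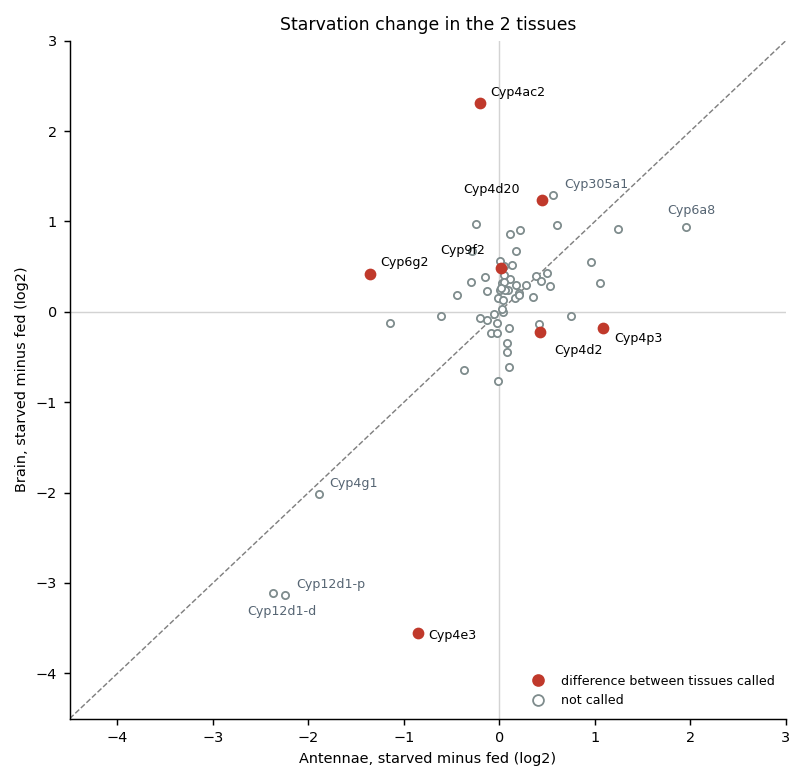
Starvation change in brain against that in antennae (both log2, starved minus fed) for the 66 P450 genes tested in both tissues, with the line of equal change. The 7 filled points are genes whose change differed between tissues, among them Cyp4ac2 at -0.20 in antennae and 2.31 in brain and Cyp4e3 at -0.85 and -3.56.

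The mitochondrial clan was set apart. All 9 of its members were tested in every comparison. In fed flies Cyp49a1 (1.98), Cyp12a5 (1.62), Cyp12a4 (0.66) and Cyp12b2 (0.62) were higher in antennae on the log2 scale. Cyp301a1 (-2.07), Cyp12d1-p (-0.97), Cyp12d1-d (-0.93), Cyp12c1 (-0.73) and Cyp12e1 (-0.28) were lower. Cyp301a1, which shapes the adult cuticle, was at -5.73, -4.63, -6.09 and -6.56 in fed antennae, where 3 of 4 arrays measured it, and at -3.87, -3.37, -3.75 and -3.73 in fed brains. The fed call of Cyp12e1 was lost with median centring, without fed antennal arrays 1 and 2 and in 4 of 8 fits that left out an array. In fed flies the tissue difference of the Cyp12d1 pair was lost in several such fits, and it was not called in starved flies, at -0.19 for Cyp12d1-d (adjusted p = 0.461) and -0.08 for Cyp12d1-p (adjusted p = 0.814).

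With starvation 2 of the 9 fell in antennae, the Cyp12d1 pair, and none rose, beside 17.2% lower and 11.1% higher among all genes. In brain the same pair fell, and Cyp301a1 (0.67 ± 0.15), Cyp12c1, Cyp12e1 and Cyp12b2 rose, beside 20.9% lower and 11.6% higher among all genes. Cyp49a1 changed by 0.35 ± 0.12 in antennae without passing (adjusted p = 0.0511), although its groups did not overlap, with -0.80, -0.52, -0.74 and -0.93 in starved antennae and -1.36, -0.96, -1.04 and -1.03 in fed antennae. Cyp12a4 and Cyp12a5 passed in neither tissue, and the sign of their antennal values, like that of Cyp301a1, turned under another scaling. The brightest probe of Cyp12b2 gave 0.11 in antennae, while another gave -0.41 (adjusted p = 0.0485). In brain the other probes of Cyp12b2 were not called, at -0.06 (adjusted p = 0.799) and 0.24 (adjusted p = 0.158). Its brain call was lost with the mean of its probes. None of the 9 differed between the tissues in the interaction test.

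Enzymes of ecdysteroid metabolism are named on the array mostly by their mutants and not by Cyp numbers. Among the members, Cyp18a1 and Cyp6t3, whose values are given above, have a described part in it. The change of Cyp18a1 with starvation passed neither in antennae (-0.45 ± 0.19, adjusted p = 0.108) nor in brain (0.18 ± 0.21, adjusted p = 0.523). Of 6 further P450s of ecdysone synthesis, 5 were found on the array. The microsomal enzymes spo and spok and the mitochondrial dib were not well above background on any antennal array. In starved brains, and likewise in fed brains, 2 of the 5 were not well above background on any array. Mitochondrial sad, the hydroxylase of carbon 2, was 2.07-fold lower in fed antennae than in fed brains and rose with starvation by 0.66 ± 0.14 in antennae (adjusted p = 0.0108) and by 0.62 ± 0.08 in brain (adjusted p = 0.00168).

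Mitochondrial shd makes the active hormone 20-hydroxyecdysone from ecdysone. Its levels were -4.45, -4.69, -3.96 and -4.01 in starved brains, against -5.94, -6.56, -6.19 and -5.82 in fed brains. The groups were apart, with a 3.61-fold rise (1.85 ± 0.21, adjusted p = 0.00123). In antennae shd was measured above background on 3 of 4 starved arrays and 1 of 4 fed arrays and was not tested.

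The proteins that serve P450s were followed as a list of 6 electron donors. Cpr was 4.91-fold higher in fed antennae than in fed brains, and rose with starvation by 0.53 ± 0.09 in antennae (adjusted p = 0.00461) and by 0.34 ± 0.08 in brain (adjusted p = 0.0138). Cyt-b5-r, the reductase of cytochrome b5, rose by 0.59 ± 0.11 in brain and gave -0.34 ± 0.22 in antennae (adjusted p = 0.27), a difference between tissues that did not pass (adjusted p = 0.0765). Fdx1, a mitochondrial ferredoxin, fell by 0.36 ± 0.12 in antennae and by 0.44 ± 0.11 in brain. The 4 regulators of detoxification, cnc, Keap1, maf-S and Hr96, were called in neither tissue.

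Many P450 genes lie side by side in the genome. By the gene order of Release 6, with at most 1 other gene between neighbours, 17 runs held 48 of the members. In the longest run, of 9 genes from Cyp6a22 to Cyp317a1, all 8 tested were higher in fed antennae, by 0.98 to 6.31 on the log2 scale. After starvation only Cyp6a8, Cyp6a21 and Cyp6a23 of them were called in antennae, all higher, and the changes of the 8 spanned -0.20 to 1.95. In the runs Cyp4ac1 to Cyp4ac3 and Cyp6g1 to Cyp6t3 the tissue order was mixed, at -3.15 to 6.23 and at -2.83 to 6.58. Cyp18a1 and Cyp308a1 are neighbours too, and fed antennae were lower than fed brains in the one and higher in the other.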

How the data were processed

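RNA of 16 extracts was labelled and read on Agilent one-colour arrays of 45020 spots, 43603 of them not controls. The deposited scanner files hold background-subtracted spot intensity made by the authors with Agilent Feature Extraction 9.1, and a deposited table holds log2 values equal to log2 intensity minus 1 constant per array. Here log2 intensity minus each array's 75th percentile was used, with outlier spots dropped and spots of a probe averaged. A probe was tested where at least 0.5 of its spots were well above background on all 4 arrays of a group compared. Groups were compared with limma 3.58.1 in R 4.3.3, two-sided, with Benjamini-Hochberg adjustment over all probes tested and a threshold of 0.05, and the script was tested on simulated data. A gene is given by its tested probe of highest mean over 16 arrays. All genes named follow rules on size of change, clan or list, apart from Cyp4g1 in antennae. Members and lists were chosen with earlier results of these data known. The precision is limited by 4 arrays per group. Alternatives were background correction (normexp, offset 50), quantile or median scaling, filters, probe rules, a replicate block, the methods' t-test and leaving out arrays. Omission of fed antennal arrays 1 and 2 together was chosen after seeing the data. Probes were matched to genes of Release 6 (20712 of 32162). Tables were handled with pandas 2.3.3 under Python 3.11.15, exact tests run with numpy 2.4.6 and plots drawn with matplotlib 3.10.9.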

Additional observations from a re-analysis of the deposited data

Results flagged for a closer look

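In 7 genes the starvation change differed between tissues in the interaction test, antennae minus brain: Cyp4e3 (2.70 ± 0.28, adjusted p = 0.000331), Cyp4ac2 (-2.51 ± 0.23, adjusted p = 0.000203), Cyp6g2 (-1.78 ± 0.27, adjusted p = 0.00326), Cyp4p3 (1.26 ± 0.18, adjusted p = 0.00229), Cyp4d20 (-0.79 ± 0.18, adjusted p = 0.0318), Cyp4d2 (0.65 ± 0.14, adjusted p = 0.0274) and Cyp9f2 (-0.47 ± 0.09, adjusted p = 0.00964). The calls of Cyp4d20, Cyp4d2 and Cyp9f2 were lost without fed antennal arrays 1 and 2.

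Single arrays stood apart in 9 of 204 groups of 4 arrays searched over 51 genes (4.41%), where chance gives about 1 in 20. The gap to the nearest array, as a share of the group's range, was above Dixon's critical value in each. In starved antennae array 4 was low for Cyp313a4 (0.878) and Cyp6w1 (0.9), and in fed antennae array 3 was high for Cyp313a1 (0.911). In starved brains array 3 was high for Cyp312a1 (0.839), array 1 was low for Cyp49a1 (0.89), array 4 was low for Cyp4d20 (0.928) and array 2 was low for Cyp6t3 (0.852). In fed brains array 4 was high for Cyp49a1 (0.87) and array 2 was high for Cyp4g1 (0.86).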

How the results depend on the processing

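Of the members called, 11 of 23 in antennae, 14 of 24 in brain, 60 of 67 between tissues in fed flies, 61 of 65 in starved flies and 4 of 7 in the interaction kept their call under every alternative run. In antennae 10 members were higher with 1 fit over all 16 arrays, beside 9.41% of all genes, and 31 with median centring, beside 35.3%. Median centring moved the median change of all genes in antennae to 0.19 from -0.02. At 2-fold or more, 4 were higher and 4 lower in antennae and 4 were higher in brain, beside 0.262%, 3.02% and 1.87% of all genes. At that size 12 were lower in fed antennae than in fed brains (22.6% of all genes), and 2 were lower in the interaction (0.835%). With normexp correction 6 were higher in the interaction (2.54% of all genes), and 2 were lower without fed antennal arrays 1 and 2 (0.769%). Leaving out 1 array gave 3 to 7 lower in the interaction, 7 (2.3% of all genes) without starved brain array 4. In brain it gave 12 higher (7.4% of all genes) to 20 higher (13.8%).

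Values that changed sign were uncalled as reported, except for Cyp303a1 (0.039) and Cyp6a15Psi (0.0706) between starved tissues with normexp. For Cyp12d1-p in that comparison the value was 0.168 with normexp, 0.0238 with quantile normalization and -0.331 to 0.12 without 1 array. In antennae Cyp12a4 gave 0.189 and Cyp12a5 0.119 with median centring, and Cyp12b2 gave -0.00081 as the mean of its probes. Cyp301a1 gave 0.284 without fed antennal arrays 1 and 2, 0.039 with normexp and 0.154 with quantile normalization. Leaving out 1 array gave -0.0755 to 0.0296 for Cyp12a4, -0.0333 to 0.223 for Cyp12c1, -0.0186 to 0.101 for Cyp12e1 and -0.555 to 0.0859 for Cyp301a1. The cause was not tested.

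Samples with the same replicate number did not deviate together. Deviations of samples with the same number correlated at -0.254 to 0.286. With the replicate block 15 members were higher and 5 lower in antennae (9.74% and 15.2% of all genes), and 14 and 6 in brain (8.83% and 17.2%). Between tissues the counts were 44 and 23 in fed flies (33.2% and 41.3%) and 44 and 21 in starved flies (35.3% and 39.1%). In the interaction they were 3 and 5 (1.35% and 1.58%). The block took the antennal calls of Cyp309a1, Cyp4ac3, Cyp4d14 and Cyp9c1. In brain it took those of Cyp12c1, Cyp4ac1, Cyp9b2 and Cyp6g2, the last at 0.42 (adjusted p = 0.0634).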
